A study of Homo sapiens with 30 samples.

Results

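The genes described here are the AP-1 transcription factors FOS, FOSB, FOSL1, FOSL2, JUN, JUNB and JUND and their bZIP relatives ATF3 and MAFF. They were taken by the gene name that the array files give each probe. All 9 genes were found, on 12 of the 66733 probes, with 4 probes for ATF3 and 1 for each other gene. All 12 probes are on both array designs and passed the filter on dim probes. The samples are cultures of BEAS-2B, a line of human bronchial epithelial cells immortalized with viral genes, kept with their apical side in air. Pollen cultures received 10 mg of whole birch pollen blown into a chamber. Control cultures, labelled air and called mock in the study, were handled in the same way while a mesh held the pollen back, so both groups share the handling and the pulse of air. RNA was collected at 5 times, of which the earliest was 10 min after the exposure, the next were 55 min, 2h25 min and 6h50 min, and the last was 24 h. Each condition has 3 cultures at each time, or 30 arrays in all. A single immortalized line without other cell types is the limit of the model.

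AP-1 is a dimer of basic leucine zipper proteins that binds DNA and switches on genes of growth, inflammation and repair. Fos proteins (FOS, FOSB, FOSL1, FOSL2) must pair with a Jun protein (JUN, JUNB, JUND), while Jun proteins can also pair with each other. FOS and FOSB are classical immediate early genes, transcribed within minutes of a stimulus through kinase signalling on factors already present, and their transcripts are short-lived. FOSL1 and FOSL2 usually follow later. JUND is known as the constitutive Jun. ATF3 is a stress-induced member of the ATF group, and MAFF is a small Maf protein that lacks a transactivation domain of its own.

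The letters before the transcription starts are shown for FOS, FOSB, JUNB, JUND and MAFF. Over the 10 group means FOSB had a Pearson r of 0.94 with JUNB. FOS was less like them, at 0.80 with FOSB and 0.76 with JUNB, and MAFF and JUND had other courses. A link between these letters and the courses was not tested. They are RefSeq sequences on build GRCh38.p14, 250 bases up to the start, available for 8 of the 9 genes and not for FOSL1. Capitals mark the searched motifs: TGACG, which is the core of the cAMP response element, the full palindrome TGACGTCA, which contains that core on both strands, the AP-1 site TGACTCA and the CArG box, all on both strands, and TATAAA on the strand of the gene.
FOS, chr14:75278578-75278827, plus strand: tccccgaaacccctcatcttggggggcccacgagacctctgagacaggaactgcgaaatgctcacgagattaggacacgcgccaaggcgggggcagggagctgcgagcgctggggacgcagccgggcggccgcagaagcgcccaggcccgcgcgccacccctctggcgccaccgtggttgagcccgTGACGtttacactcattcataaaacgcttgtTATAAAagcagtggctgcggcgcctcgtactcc
FOSB, chr19:45467746-45467995, plus strand: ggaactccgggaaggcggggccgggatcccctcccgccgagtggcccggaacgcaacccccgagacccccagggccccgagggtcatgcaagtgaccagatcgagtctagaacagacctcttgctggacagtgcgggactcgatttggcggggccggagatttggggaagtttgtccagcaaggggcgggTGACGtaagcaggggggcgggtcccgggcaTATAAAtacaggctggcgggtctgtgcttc
JUNB, chr19:12791236-12791485, plus strand: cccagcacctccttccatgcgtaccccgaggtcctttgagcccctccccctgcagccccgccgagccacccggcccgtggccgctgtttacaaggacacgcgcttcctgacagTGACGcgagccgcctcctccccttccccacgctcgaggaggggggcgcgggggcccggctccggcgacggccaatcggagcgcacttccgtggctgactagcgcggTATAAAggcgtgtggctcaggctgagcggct
JUND, chr19:18281623-18281872, minus strand: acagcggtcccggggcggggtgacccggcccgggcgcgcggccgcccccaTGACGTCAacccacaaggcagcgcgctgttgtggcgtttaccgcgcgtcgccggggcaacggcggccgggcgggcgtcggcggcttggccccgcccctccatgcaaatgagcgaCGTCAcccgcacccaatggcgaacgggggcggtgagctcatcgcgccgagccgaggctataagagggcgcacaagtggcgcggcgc
MAFF, chr22:38201744-38201993, plus strand: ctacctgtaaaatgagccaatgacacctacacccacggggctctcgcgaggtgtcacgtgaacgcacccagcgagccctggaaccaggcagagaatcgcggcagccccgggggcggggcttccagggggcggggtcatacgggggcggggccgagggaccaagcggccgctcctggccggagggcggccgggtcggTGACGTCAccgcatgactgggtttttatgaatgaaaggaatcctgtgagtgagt
FOS held TGACG at 64 to 60 bases and TATAAA at 33 to 28 bases before the start. FOSB held the same pair at 60 to 56 and at 30 to 25 bases. In JUNB the TGACG lay farther away, at 137 to 133 bases, with TATAAA at 31 to 26 bases. JUND and the first of the 2 MAFF entries held the full TGACGTCA, at 200 to 193 and at 54 to 47 bases. FOSL2 and JUN held TGACG without TATAAA, and the second ATF3 entry held TATAAA at 230 to 225 bases. Neither TGACTCA nor the CArG box was in any of these windows. Sites farther than 250 bases before the start, or with letters other than those searched, were not looked for. These genes may thus have such sites. Of all 35116 windows of this length, 21.2% held TGACG, 6.8% TATAAA, 1.65% TGACGTCA, 4.2% TGACTCA and 1.16% a CArG box. A match is a run of letters and no measured binding site.

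Each value below is the log2 of a probe's processed signal minus the 75th percentile of its array over the 33873 probes on both designs, so a probe as bright as that percentile has 0. The value cannot be compared between genes, since probes differ in brightness for the same amount of RNA. In such bulk samples, fewer cells that express a gene and less of its RNA per cell cannot be told apart. Between 44.7% and 59.3% of an array's probes were well above background. Of 9 epithelial markers, 8 or 9 were well above background on all arrays of each group, with KRT5, KRT8, CDH1 and EPCAM on all 30 arrays. Of 7 mesenchymal markers 4 or 5 were so, with VIM, COL1A1 and DCN on 30 arrays and COL3A1 and LUM on 0. Of 6 leukocyte markers 2 to 4 were so, with PTPRC and CD14 on 30 and FCER1A on 0, and of 4 endothelial markers 1 or 2, with CDH5 on 30 and PECAM1 on 0. No marker was called in pollen against air. In cultures of a single line, the signal of a marker is no measure of other cell types. The part of the marker signals in the results was not tested. The results are touched by 3 features of the arrays. The arrays lie on 5 slides: all 6h50 min arrays share a slide with no others, and all 10 min arrays share one with a single 55 min air array. The 55 min pollen replicate 1 array is alone on a slide of another design. The spot of the JUN probe lay in a dim area on air replicate 1 at 10 min and on air replicates 1 and 2 at 6h50 min.

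One control array stood apart for these genes. At 55 min, air replicate 3 had the highest value of its group for all 9 members. It exceeded the mean of air replicates 1 and 2 by 3.77 for FOS and 3.84 for FOSB, and by 0.31 (JUND) to 1.30 (ATF3) for the other members. Over all tested probes the median of this excess was 0.07, and 1.55% of probes exceeded 1. Pollen replicate 3 was the highest pollen array at 55 min for 8 of the 9 members, all but FOSL2. The FOS and FOSB levels of air replicate 3, 2.33 and 0.42, lay within the range of the pollen arrays of that time. Whether the label of this air array holds, and the cause of this height, were not tested. The main differences that use the 55 min air group are given with and without it. It was singled out by its values of these same genes, after seeing the data, while pollen replicate 3 was kept. Larger differences and smaller errors of FOS and FOSB without it follow in part from that choice. Calls made without it are thus no independent support. All groups share an estimate of each gene's spread, so this array also widens the standard errors of FOS and FOSB in the other comparisons. Those are given only with it.

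**Figure D1:**
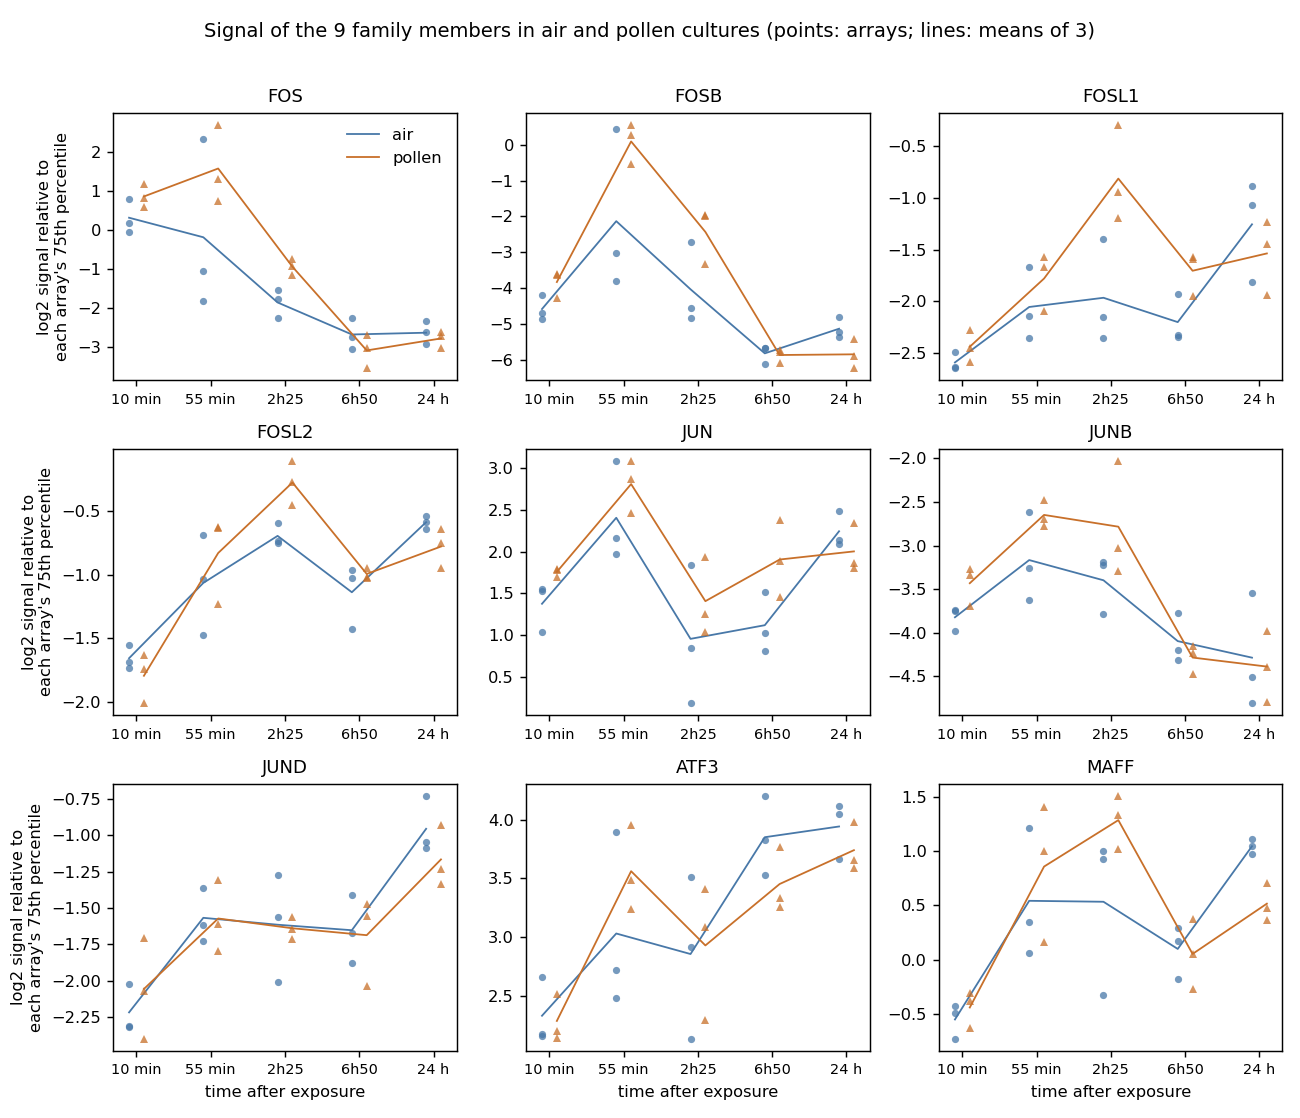
Signal of the 9 genes on each array (circles, air; triangles, pollen) and the means of 3 arrays (lines) at the 5 times, as log2 relative to each array's 75th percentile, with a vertical axis of its own for each gene. FOS and FOSB were highest in pollen at 55 min and lowest at 6h50 min, and FOSL1, FOSL2 and MAFF in pollen were highest at 2h25 min. The brightest ATF3 probe, shown here, was highest at 24 h in both conditions.

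The first comparison asks whether pollen changed these transcripts at a given time. None of the 9 members was called in pollen against air at any time, where a call is an adjusted p under 0.05 in limma's moderated test over 32100 probes together with a change of at least 1.1-fold. Calls were rare in all these comparisons, with 0% of probes at 10 min, 0.00312% at 55 min, 0.0343% at 2h25 min, 0.0436% at 6h50 min and 0.00312% at 24 h. At an unadjusted p under 0.05 the members numbered 0 at 10 min, 2 at 55 min (FOS and FOSB), 4 at 2h25 min (FOSB, FOSL1, FOSL2 and MAFF), 1 at 6h50 min (JUN) and 0 at 24 h. Of all probes 1.83%, 5.08%, 2.98%, 7.44% and 3.61% had such a p at the 5 times. Without air replicate 3 of 55 min, 2 members were called at that time and 6 had such a p, against 0.0436% and 3.97% of probes. The sign of the difference shifted with time. Pollen was above air for 7 members at 10 min, 8 at 55 min and 8 at 2h25 min, for 3 at 6h50 min and for 0 at 24 h. With quantile normalization the counts at 55 min and 2h25 min were 9 and 9. They were 4 and 9 when each array was centred on the percentile of all its own probes, and 4 and 8 in the deposited log2 table, with a median of all probes at 55 min of −0.37 and −0.23. The median log2 difference of the 9 members was 0.16, 0.40, 0.62, −0.05 and −0.21 at the 5 times, and over all probes the median lay between −0.03 and 0.01.

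FOS encodes the founding Fos protein. In air at 55 min its values were −1.83, −1.06 and 2.33 in replicates 1 to 3. In pollen they were 0.74, 1.31 and 2.69. The groups overlapped through air replicate 3 alone. Pollen exceeded air by 1.77 ± 0.64 (SE, n = 3 against 3) on the log2 scale, or 3.40-fold, with an adjusted p of 0.920. Without air replicate 3, left out after seeing its values, a call was made at 3.02 ± 0.41 with an adjusted p of 0.00304.

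FOSB encodes a second immediate early Fos protein. Its 55 min air values were −3.03, −3.79 and 0.42, and its pollen values were 0.28, −0.55 and 0.54. Again a single air array stood among the pollen arrays. The difference was 2.22 ± 0.69, or 4.66-fold, with an adjusted p of 0.920, and without air replicate 3 it was 3.50 ± 0.49 with an adjusted p of 0.00305. Between arrays of the same number, pollen exceeded air by 3.31, 3.24 and 0.11 for FOSB and by 2.57, 2.37 and 0.36 for FOS. On the slide that holds replicates 2 and 3 of both conditions, the mean difference was 1.68 for FOSB and 1.36 for FOS.

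None of the other members had an unadjusted p under 0.05 at 55 min. ATF3 differed by 0.53 ± 0.34, JUNB by 0.52 ± 0.32 and JUN by 0.40 ± 0.34, and MAFF, FOSL1 and FOSL2 by 0.32, 0.28 and 0.24. JUND differed by −0.00 with a 95% interval from −0.42 to 0.41. The differences of ATF3, JUNB and JUN without air replicate 3 were 0.96 ± 0.33, 0.80 ± 0.34 and 0.74 ± 0.36, and those of MAFF, FOSL1, FOSL2 and JUND 0.65, 0.47, 0.42 and 0.10, none of them called. No member's groups were free of overlap at 55 min, against 8.67% of all probes with groups that did not overlap in either direction. Of the 27 differences between arrays of the same number, 26 were above 0, with medians over the members of 0.49, 0.65 and 0.09 in replicates 1 to 3. The members share the same arrays, so these differences are not independent, and the number was not taken to pair samples. The share over all probes is not given.

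**Figure D2:**
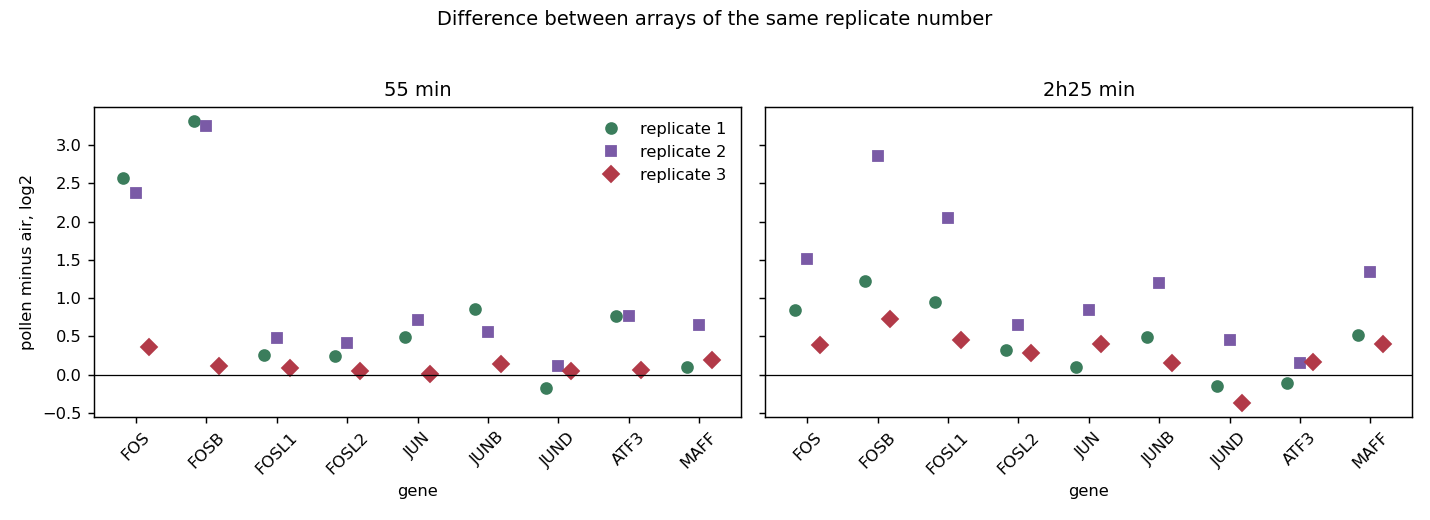
Pollen minus air (log2) between arrays of the same replicate number for each gene at 55 min (left) and 2h25 min (right), 1 point per number. FOS and FOSB at 55 min lay above 2 in replicates 1 and 2 and below 0.5 in replicate 3, and at 2h25 min FOSL1 lay above 0 in all 3.

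At 2h25 min the member with the lowest p was FOSL1, which encodes FRA1, a Fos protein known for its part in cell migration. It had air values of −2.15, −2.35 and −1.40. Its pollen values were −1.20, −0.30 and −0.94. All pollen arrays lay above all air arrays. The difference was 1.15 ± 0.27, or 2.22-fold, with a 95% interval from 0.59 to 1.71 and an adjusted p of 0.265, the lowest of any member in pollen against air. On the slide shared by replicates 1 and 2 it was 1.50, and on that of replicate 3 it was 0.45. With the replicate number as a block the adjusted p was 0.0867. With normexp background correction and quantile normalization it was 0.0734, and with both changes, a setting chosen after seeing the data, FOSL1 was called at 1.02 with an adjusted p of 0.0174.

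FOSL2, which encodes FRA2, had air values of −0.60, −0.75 and −0.74 and pollen values of −0.27, −0.10 and −0.45, again without overlap. Its difference of 0.42 ± 0.17 amounts to 1.34-fold. For MAFF the air values were 1.00, −0.32 and 0.93 and the pollen values 1.51, 1.02 and 1.33, a difference of 0.75 ± 0.32. FOS was still higher with pollen. Its air values of −1.78, −2.25 and −1.55 lay below its pollen values of −0.93, −0.74 and −1.16, and the difference was 0.92 ± 0.64. In these 4 of the 9 genes every pollen array exceeded every air array, which held for 2.85% of all probes.

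FOSB at 2h25 min was −4.54, −4.82 and −2.72 in air and −3.32, −1.97 and −2.00 in pollen, a difference of 1.60 ± 0.69 with groups that overlapped. JUNB, a Jun protein that often restrains JUN, differed by 0.62 ± 0.32, and JUN itself by 0.45 ± 0.34. The differences of ATF3 and JUND were near 0, at 0.07 with a 95% interval from −0.64 to 0.78 and at −0.02 with one from −0.44 to 0.39.

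JUN, the main partner of FOS, had a difference at 6h50 min that rests in part on spots in a dim area. Its air values were 0.81, 1.03 and 1.52 and its pollen values 2.38, 1.88 and 1.45, so pollen replicate 3 lay among the air arrays. The difference was 0.78 ± 0.34 with an adjusted p of 0.596. The 2 lowest air values are those of spots in a dim area. With the dim areas left out, 1 air array remained for JUN and the difference was 0.38 ± 0.49, smaller in size than those of FOSL1, FOS and ATF3 at that time. With normexp, quantile normalization and the replicate block, chosen after seeing the data, the difference was called at 1.08, with an adjusted p of 0.0389. That setting kept the spots in the dim area. JUN and JUNB were also the members whose pollen arrays at 10 min all lay above the air arrays, as 3.85% of probes did. Their differences there were 0.38 ± 0.34 and 0.39 ± 0.32, and the lowest JUN array in air at 10 min, at 1.04, is the other one with the spot in a dim area.

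FOSL1 at 6h50 min was still 0.50 ± 0.27 higher with pollen, whereas the differences of ATF3 and FOS were −0.40 and −0.41. No member's groups were free of overlap, against 11.7% of probes in either direction. By 24 h all 9 members were lower in pollen than in air, with differences from −0.71 for FOSB to −0.10 for JUNB. MAFF, at 1.05, 0.97 and 1.12 in air, was 0.71, 0.37 and 0.48 in pollen. FOSB was −5.22, −4.81 and −5.35 in air and −5.41, −6.23 and −5.89 in pollen. These were the 2 members whose pollen arrays all lay below the air arrays, as 3.47% of probes did. Of the 27 differences between arrays of the same number, 2 were above 0 at 24 h. These are not independent either, and the share over all probes is not given.

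**Figure D3:**
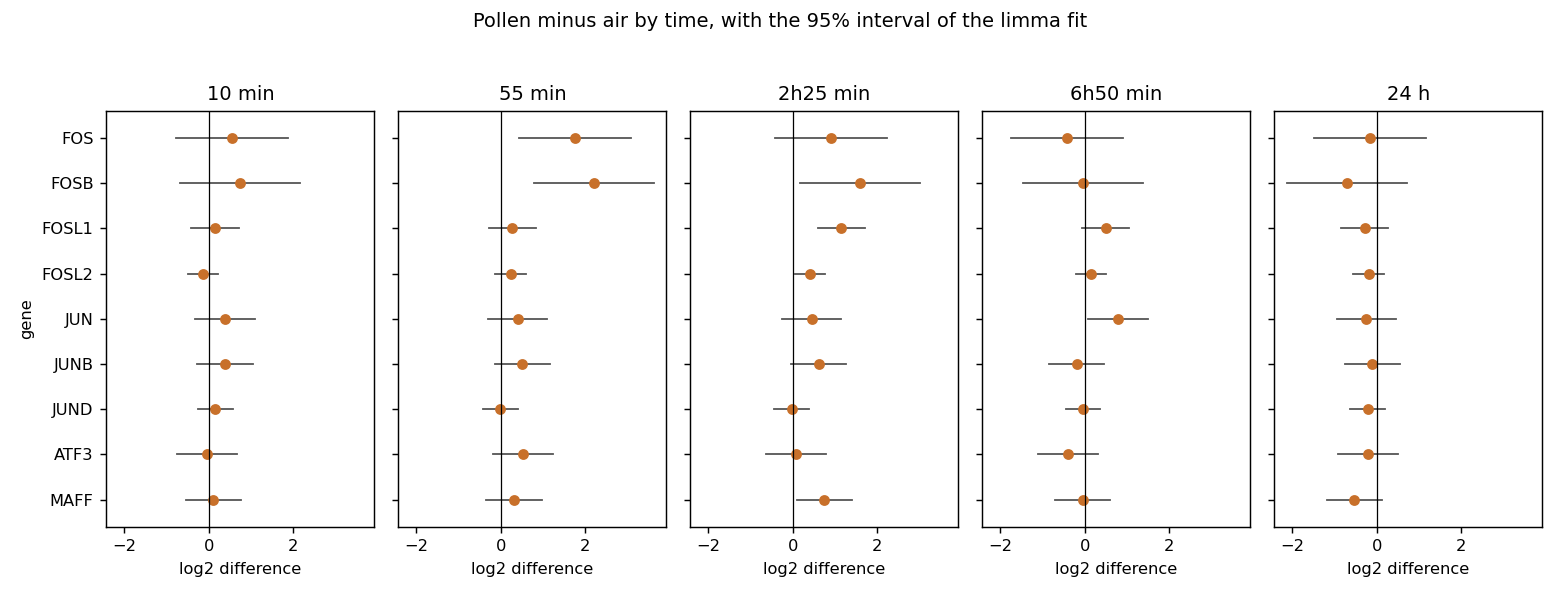
Pollen minus air (log2 difference, horizontal axis) for the 9 genes at each time, with the 95% interval of the limma fit to 3 arrays per group. The intervals of FOS and FOSB at 55 min and of FOSB, FOSL1, FOSL2 and MAFF at 2h25 min lay above 0, and no difference passed the adjusted test.

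A test of whether the effect of pollen itself differed between neighbouring times made no call for any member, against 0%, 0%, 0.00312% and 0% of probes for the 4 successive steps. From 55 min to 2h25 min the effect on FOSL1 was 0.88 ± 0.38 larger, while for FOS and FOSB the change was −0.85 ± 0.91 and −0.62 ± 0.97. From 2h25 min to 6h50 min the effect was lower for 8 of the 9 members, all but JUN (−0.07 with the dim areas left out), at −1.33 ± 0.91 for FOS and −1.64 ± 0.97 for FOSB. The change of the effect from 10 min to 55 min was 1.22 ± 0.91 for FOS and 1.47 ± 0.97 for FOSB. Without air replicate 3 of 55 min these changes were 2.48 ± 0.55 and 2.75 ± 0.65, and those of FOS and FOSB from 55 min to 2h25 min −2.11 ± 0.55 and −1.90 ± 0.65, none of them called. At an unadjusted p under 0.05 stood FOSL1 in the second step, as 1.38% of probes did, and JUN in the last, as 5.16% did. FOSL1 no longer had such a p without that air array, at 0.68 ± 0.39, nor JUN with the dim areas left out, at −0.63.

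The second comparison follows the members through time within a condition. From 10 min to 55 min in pollen all 9 members were higher (8 in the deposited log2 table, with a median of all probes of −0.23), and FOSB and FOSL2 were called, 2 of 9 against 0.841% of probes in either direction and 0.421% upwards. FOSB in pollen went from −3.62, −4.26 and −3.60 at 10 min to 0.28, −0.55 and 0.54 at 55 min, a rise of 3.92 ± 0.69 or 15.1-fold with an adjusted p of 0.00883. FOSL2 went from −2.01, −1.74 and −1.64 to −1.23, −0.62 and −0.63, a rise of 0.97 ± 0.17 with an adjusted p of 0.00980. In both genes the times did not overlap, as in 7 of the 9 members, against 6.03% of probes. MAFF and ATF3 gained 1.30 ± 0.32 and 1.27 ± 0.34 without passing the test, at adjusted p of 0.0524 and 0.0794. The 2 times share no slide in pollen, and with slide as a fixed term the differences were 2.47 ± 1.21 for FOSB and 0.55 ± 0.24 for FOSL2, neither called. The call of FOSL2 was also lost without pollen replicate 1 of 10 min, at an adjusted p of 0.0627, and MAFF was called without pollen replicate 1 of 55 min, at 0.0164.

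FOS had another course, with its highest air mean at 10 min. Its values then were −0.05, 0.18 and 0.81 in air and 0.81, 0.59 and 1.19 in pollen. In air 2 of the 3 arrays were lower at 55 min, and the mean difference was −0.50 ± 0.64. The single 55 min air array on the slide of the 10 min arrays differed from the mean of the 10 min air arrays by −2.15 for FOS and by 1.55 for FOSB. In air 8 of the 9 members were higher at 55 min than at 10 min, all but FOS, with FOSB at 2.45 ± 0.69, MAFF at 1.09 ± 0.32 and JUN at 1.03 ± 0.34. None was called, against 0.187% of probes, while 6 members had an unadjusted p under 0.05, as did 10.8% of probes. Without air replicate 3 the differences were 1.17 ± 0.49 for FOSB, 0.76 ± 0.32 for MAFF, 0.69 ± 0.36 for JUN and −1.76 ± 0.41 for FOS, and 5 members had such a p. FOSL2 was called in air without air replicate 1 of 55 min, at 0.80 with an adjusted p of 0.0296.

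Between 55 min and 2h25 min no member was called, against 0.0156% of probes in air and 0.202% in pollen. At an unadjusted p under 0.05 there were 4 members in air and 5 in pollen, against 4.30% and 8.42% of probes. In air there were 2 without air replicate 3 of 55 min, and JUN then differed by −1.11 ± 0.36. JUN had the lowest adjusted p in both. It went from 1.97, 2.16 and 3.08 to 1.83, 0.19 and 0.85 in air, and from 2.46, 2.87 and 3.09 to 1.93, 1.04 and 1.25 in pollen. Every 2h25 min array lay below every 55 min array of its condition, with differences of −1.45 ± 0.34 (adjusted p 0.344) and −1.40 ± 0.34 (adjusted p 0.116). FOS and FOSB in pollen each had a difference of −2.52, while FOSL1 was higher by 0.97 ± 0.27 and FOSL2 by 0.55 ± 0.17. On the slide that holds 2 arrays of each, these differences in pollen were −2.83 for FOS, −2.64 for FOSB and 0.87 for FOSL1. The tests of FOS and FOSB in this pollen step also carry the spread of air replicate 3 of 55 min, through the estimate shared by all groups. Values of this step without that array are not given, so the missing calls cannot be read as a trait of the pollen cultures.

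**Figure D4:**
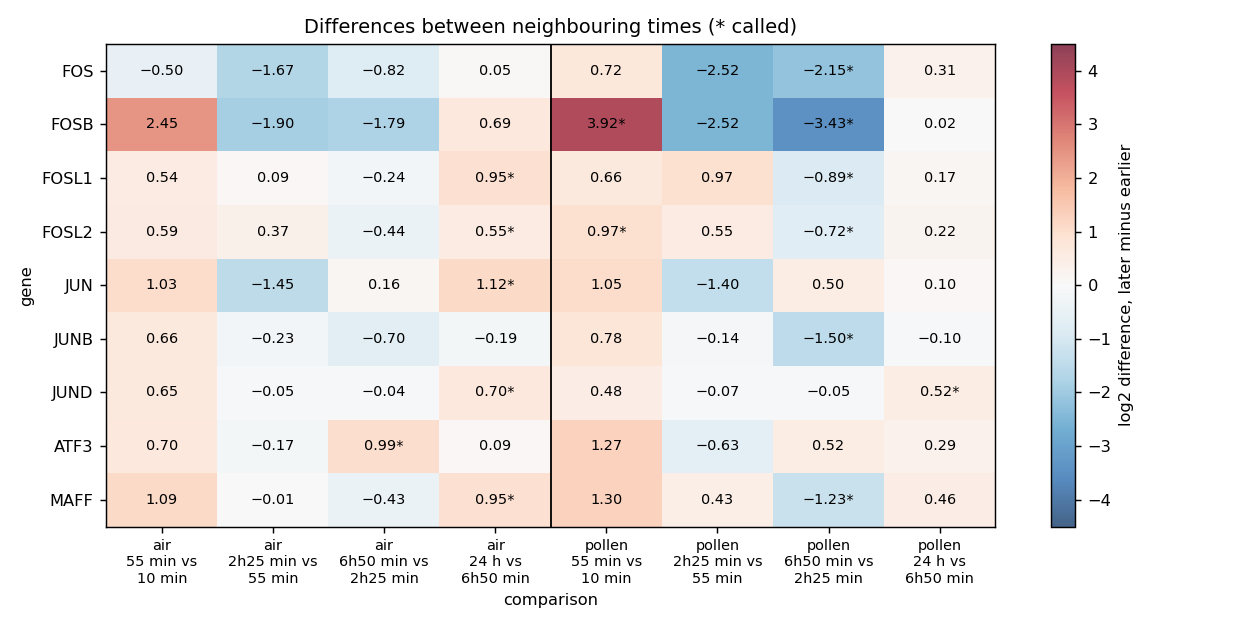
Log2 difference of each gene (rows) between neighbouring times (columns; later minus earlier) in air (left 4) and pollen (right 4), with an asterisk where the adjusted p was under 0.05 and the change at least 1.1-fold. The largest values were both for FOSB in pollen, at 3.92 in the step up to 55 min, where its mean was highest, and −3.43 from 2h25 min to 6h50 min.

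From 2h25 min to 6h50 min in pollen 6 of the 9 members were lower and called, against 31.0% of probes called and 19.9% called downwards. FOSB fell by 3.43 ± 0.69, FOS by 2.15 ± 0.64, JUNB by 1.50 ± 0.32, MAFF by 1.23 ± 0.32, FOSL1 by 0.89 ± 0.27 and FOSL2 by 0.72 ± 0.17. Adjusted p ranged from 0.000883 for FOSB to 0.0157 for FOSL1. JUNB went from −3.29, −2.03 and −3.03 to −4.24, −4.15 and −4.47, and its times did not overlap, nor did those of the other 5 genes, against 28.6% of probes that were lower without overlap. The differences of JUN and ATF3 were 0.50 and 0.52, and that of JUND was −0.05. FOS lost its call without pollen replicate 3 of 6h50 min (adjusted p 0.0526), and FOSL1 without pollen replicate 2 of 2h25 min (0.109) or of 6h50 min (0.0741). Since the 6h50 min arrays lie on a slide of their own, time and slide cannot be told apart in this step or in the next. These arrays were also dimmer, with a 75th percentile from 578 to 1151 against 1044 to 2111 at the other times. In the same step all 5 tested mesenchymal markers were lower in pollen, 2 of them called, with a median of −0.88 and a summed signal that went from between 100 and 116 to between 60.6 and 71.1 times the percentile. All 4 tested leukocyte markers were lower as well, 2 of them called, with a median of −0.93. In air 2 mesenchymal and 3 leukocyte markers were called downwards, with medians of −0.92 and −0.91. The part of these features in the members' differences was not tested.

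In air the same step called ATF3 alone, against 32.4% of probes called and 9.9% called upwards. ATF3 rose from 3.51, 2.14 and 2.92 to 4.20, 3.82 and 3.53, by 0.99 ± 0.34 with an adjusted p of 0.0304. This call was lost without air replicates 2 or 3 of 2h25 min and without air replicates 1 or 2 of 6h50 min, at adjusted p from 0.0552 to 0.214. FOSB and FOSL2, at −1.79 and −0.44, were just outside the threshold at adjusted p of 0.0503 and 0.0530. The scaling matters here. The median of all probes was −0.15 in air and −0.11 in pollen, and 0.03 and 0.02 with quantile normalization, and the share of calls that were upwards went from 30.5% to 53.1% in air and from 35.8% to 52.3% in pollen.

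At 24 h against 6h50 min in air 5 of the 9 members were higher and called, against 40.5% of probes called and 24.7% called upwards. JUN rose by 1.12 ± 0.34, FOSL1 by 0.95 ± 0.27, MAFF by 0.95 ± 0.32, JUND by 0.70 ± 0.20 and FOSL2 by 0.55 ± 0.17, where the median of all probes was 0.14 (0.01 with quantile normalization). Over the same step the summed linear signal of the epithelial markers went from between 228 and 247 to between 139 and 180 times the percentile in air, and from between 229 and 299 to between 155 and 182 in pollen, with 5 and 4 markers called downwards. Of the mesenchymal markers 2 were called downwards in air and 1 in pollen, with medians of −0.85 and −0.40, and 2 of the 4 leukocyte markers were called upwards in each, with a median of 0.86. The part of the markers in these differences was not tested. JUND was −1.67, −1.88 and −1.41 at 6h50 min and −0.73, −1.05 and −1.09 at 24 h. The JUN call rests on the 6h50 min spots in a dim area, and without dim areas the value was 0.72 ± 0.49 with an adjusted p of 0.253. Leaving out 1 array ended the call of JUN, FOSL1, FOSL2 or MAFF in 1 or 2 cases each, at adjusted p from 0.0524 to 0.0924, and that of JUND in none. In pollen JUND alone was called, against 36.2% of probes called and 21.8% called upwards, at 0.52 ± 0.20 with an adjusted p of 0.0443, where the median of all probes was 0.11. This p became 0.0578 to 0.212 in 4 of the 6 cases with 1 array left out.

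The time of the highest mean separated the members. In pollen it was 55 min for FOS, FOSB, JUN and JUNB, 2h25 min for FOSL1, FOSL2 and MAFF, and 24 h for JUND and ATF3. In air it was 10 min for FOS, 55 min for FOSB, JUN and JUNB, and 24 h for the other 5 genes. For ATF3 the time is that of its brightest probe and did not hold for all its probes. That probe was at 3.94 in air at 24 h against 3.85 at 6h50 min. Without air replicate 3 of 55 min the highest air mean of JUN was at 24 h and that of JUNB at 2h25 min. In pollen the highest and the lowest time mean lay 61.9-fold apart for FOSB and 25.5-fold for FOS, and between 1.85-fold (JUND) and 3.34-fold (JUNB) for the other genes. In air the ranges were 12.8-fold for FOSB, 7.99-fold for FOS and 2.10-fold (FOSL2) to 3.05-fold (ATF3) for the rest. That of FOSB was 5.30-fold without air replicate 3 of 55 min, and that of JUNB 1.85-fold. Over the 10 group means, which share slides, the course of FOSB had a Pearson r of 0.94 with that of JUNB and of 0.80 with that of FOS, and FOSL2 had one of 0.94 with MAFF and 0.91 with FOSL1. JUND went with ATF3 at 0.82. FOS and ATF3 were at −0.60. FOSB was close to the limit of the arrays at the late times, where 1 pollen array at 6h50 min and 1 at 24 h were not well above background.

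ATF3 is the one member seen by several probes. On hg19 they lie at chr1:212793856-212793915, chr1:212788502-212788561, chr1:212792837-212792896 and chr1:212792519-212792578, all on the plus strand, in the order of their mean signal. The brightest stands for the gene in this text. From 10 min to 55 min in pollen the second probe differed by 1.27 ± 0.32, as much as the brightest, without a call (adjusted p 0.0586). The third had its lowest mean at 10 min too. Its highest mean was at 6h50 min, at −1.18 in air and −1.60 in pollen, against −1.34 and −1.67 at 24 h. The dimmest probe (A_33_P3214096) went the other way at −0.62 ± 0.19, which was not called, and pollen against air at 55 min was −0.42 ± 0.19. Its values over all 30 arrays lay between −4.33, on the pollen array with the other probe set, and −3.07. The files assign it to the same transcript record as the brightest probe. The rise in air from 2h25 min to 6h50 min was called for the third probe as well, at 1.17 ± 0.37, and not for the second, at 0.17 ± 0.32, and the third probe alone was also called in pollen, at 0.98 ± 0.37 with an adjusted p of 0.0479.

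**Figure D5:**
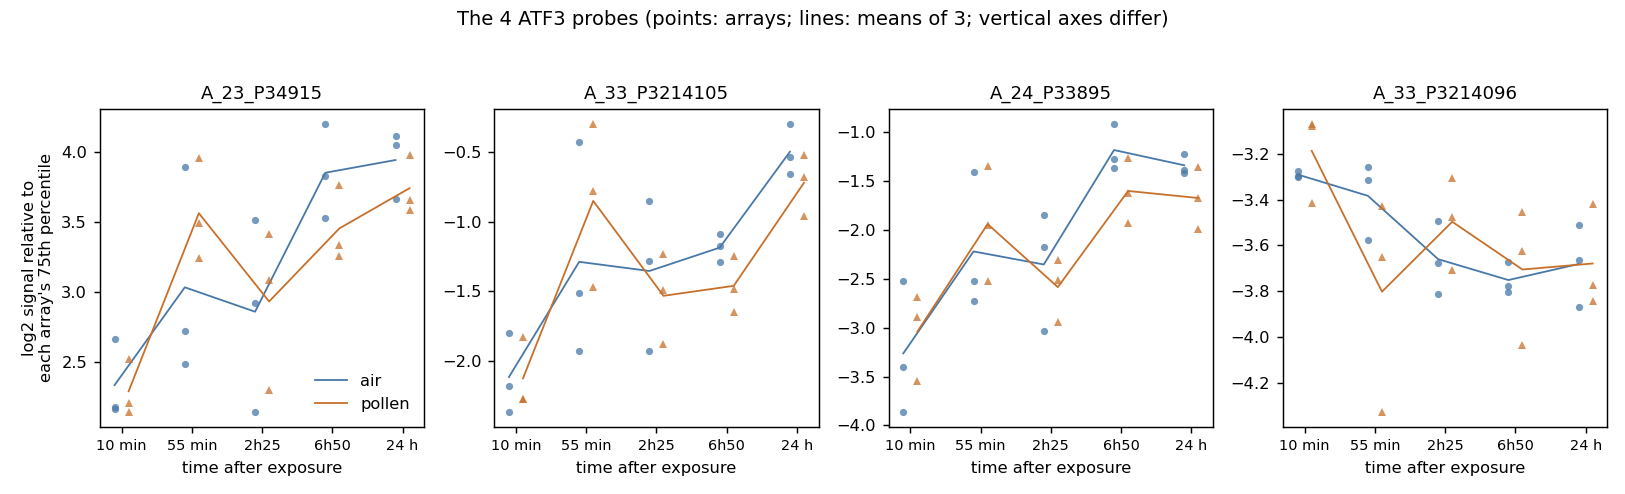
The 4 ATF3 probes, in the order of their mean signal, on each array (circles, air; triangles, pollen) with means of 3 arrays (lines) as log2 relative to each array's 75th percentile, each with a vertical axis of its own. The first 3 were lowest at 10 min in both conditions, and the fourth was highest at 10 min.

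The other single probes lie on hg19 at chr14:75748214-75748273 (FOS), chr19:45978205-45978264 (FOSB), chr2:28637175-28637234 (FOSL2), chr19:12902998-12903057 (JUNB) and chr22:38611984-38612043 (MAFF) on the plus strand, and at chr11:65660098-65660157 (FOSL1), chr1:59246511-59246570 (JUN) and chr19:18391371-18391430 (JUND) on the minus strand. With 1 probe a gene, isoforms of these genes cannot be separated.

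Among the 23697 probes well above background on every array, the genes with a course most like a member's over the 10 group means were looked up for 4 members. For FOS they were ZRANB3, TMEM209 and DTWD2, at a Pearson r of 0.96 to 0.97. For FOSL1 they were MYADM, LIF and VASN, at 0.95. LIF encodes a cytokine of the interleukin-6 family. For JUN they were RHOB, MAGI2 and SRRD, at 0.87 to 0.89, and for ATF3 RAPGEF2, TIMM21 and TP53RK, at 0.97 to 0.99. The group means share slides, and the likeness is a description only.

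The wider pathway was followed with 3 lists: 30 partners and other bZIP factors, 28 kinases and factors upstream of AP-1 and 31 genes known as AP-1 targets, of which 27, 27 and 25 were tested. In pollen against air no gene of any list was called at any time. At 2h25 min 21 of the 25 targets were higher with pollen, with a median difference of 0.20 against −0.03 over all probes, and 21 of the 27 partners, with a median of 0.08. For the upstream list 14 of 27 were higher, with a median of 0.03. In the same order the counts were 12, 10 and 18 at 10 min and 13, 20 and 14 at 55 min. They were 18, 14 and 14 at 6h50 min and 13, 12 and 10 at 24 h. The median of the targets was 0.01 at 55 min and 0.12 at 6h50 min. The share of all probes that were higher is not given.

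From 10 min to 55 min in pollen 2 of the 25 targets rose, IL6 by 2.59 ± 0.53 and HBEGF by 1.07 ± 0.25, which encode an inflammatory cytokine and a ligand of the EGF receptor. Among the 27 upstream genes 1 rose, MAP3K8 by 0.66 ± 0.14, which encodes a kinase that activates the ERK pathway. Of all probes 0.841% were called in this step and 0.421% upwards. The pollen arrays of these times share no slide, so time and slide are not separated here either. From 55 min to 2h25 min in pollen 1 upstream gene rose, MAP2K3 by 1.09 ± 0.16, a kinase of p38, and no partner or target was called, against 0.202% of probes. In air none of the 3 lists had a call in either of these steps, against 0.187% and 0.0156% of probes. No partner was called in pollen from 10 min to 55 min.

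From 2h25 min to 6h50 min in pollen 7 of the 25 targets fell and none rose, where 31.0% of all probes were called and 19.9% downwards. CSF2, which encodes GM-CSF, was well above background on all 3 arrays at 2h25 min and on none at 6h50 min, and was at least 3.15-fold lower. ITGA2, an integrin subunit, was at least 1.90-fold lower by the same bound. DUSP1, a phosphatase that switches MAP kinases off, fell by 1.08 ± 0.34. Among the upstream genes 6 rose and 7 fell, with MAP3K8 at −1.07 ± 0.14 and MAP2K3 at −0.77 ± 0.16, and among the partners 5 rose and 6 fell. In air, where 32.4% of probes were called, 7 targets fell and none rose, with MMP9, a matrix protease, at −1.15 ± 0.43, with 4 up and 7 down among upstream genes and 4 up and 3 down among partners. MAP3K8 was called in air too, at −0.95 ± 0.14. From 6h50 min to 24 h the targets that were higher and lower numbered 6 and 6 in air and 4 and 9 in pollen, where 40.5% and 36.2% of probes were called. DUSP1 in pollen was higher again by 1.11 ± 0.34, and CXCL8, the neutrophil chemokine, was at least 6.37-fold lower in pollen, where no 24 h array was well above background. Both genes were called in the same direction in air, DUSP1 at 1.04 ± 0.34 and CXCL8 at −2.73 ± 0.69. For CXCL8 only 1 air array at 24 h was well above background. Upstream genes went 5 up and 4 down in air and 3 up and 5 down in pollen, and partners 3 up and 8 down and 3 up and 6 down. In these late steps, too, time and slide cannot be told apart.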

How the data were processed

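One-colour Agilent arrays of 30 BEAS-2B cultures were analysed, 3 per condition and time. The labels number replicates without saying what they share, and per the methods runs were repeated on different days. The members and the gene lists were chosen with earlier results of these data known. The authors deposited spot intensity values per array, which per the file headers Agilent Feature Extraction 11.0.1.1 had background subtracted and detrended. The authors also deposited log2 values of all arrays together, used as an alternative. Of these 30 columns, 24 matched their own array best and 6, all at 24 h, another array of their own group.

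In R 4.3.3 with the package data.table (version 1.17.8), uneven and outlier spots were left out, spots of a probe averaged, put on the log2 scale and centred on the 75th percentile of the 33873 shared probes. A probe entered the test if some group had it well above background on each of its 3 arrays, which 32100 probes passed. limma 3.58.1 (lmFit, eBayes) was fitted to all arrays with 10 group means, 20 residual and 2.35 prior degrees of freedom, and p-values were adjusted by Benjamini-Hochberg over all probes. A call needs an adjusted p under 0.05 and at least 1.1-fold (no fold for differences between pollen effects), the study's cut-offs. Intervals are 95% and errors are standard errors. A gene is read by its brightest tested probe. All 9 members are named, from each list at most 4 called genes with the largest change per comparison, and for 4 members the 3 genes most like them. The air value of DUSP1 from 6h50 min to 24 h is given in addition, beside its pollen value. If a group had no array on which the probe cleared background, the fold is a lower bound that uses the dimmest signal clearing it. The fit was tested on simulated data. Alternatives were other scalings, background correction (normexp, offset 50), no filter, weights, blocks, dim areas left out and each array left out in turn. Same-numbered arrays deviated together, with correlations over 0.1 for every pair at 10 min, 2h25 min and 24 h but not at 55 min or 6h50 min, so the number was not taken to pair samples. Still, among the pollen arrays of its time, every air array but replicate 2 of 55 min was closest to the one of its own number. The paper also states that each run had its own mock control. The main tests may thus leave out a real pairing, and fits with the number as a block are given as an alternative. The precision rests on 3 arrays per group, and p-values measure the spread between these samples. No measurement column was left without a sample.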

Additional observations from a re-analysis of the deposited data

How the results depend on the processing

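The number of members called in pollen against air was 0 at every time under most settings. With array weights it was 2 at 55 min, and with normexp, quantile normalization and the replicate block together, chosen after seeing the data, it was 1 at each of 55 min (FOS), 2h25 min (FOSL1) and 6h50 min (JUN). Leaving out 1 array gave 0 to 2 at 55 min. Over time the count for 6h50 min against 2h25 min in air (1) was 0 with quantile normalization, the percentile over own probes, no filter, slide as a random block, only the arrays compared and the deposited table, 2 with normexp and quantile normalization with or without the block, 3 with dim areas left out, 4 with array weights and 0 to 1 with 1 array left out. That for 24 h against 6h50 min in air (5) was 0 with the percentile over own probes and with slide as a random block, 1 with the deposited table and 4 with any 1 array left out. For 55 min against 10 min in pollen (2), it was 0 with slide as a random block or, chosen after seeing the data, as a fixed term, and with only the arrays compared, 1 with the percentile over own probes and the deposited table, 4 with normexp and quantile normalization with or without the block, 5 with array weights and 1 to 3 with 1 array left out. In air the same step (0) gave 4 with array weights and 0 to 1 with 1 array left out. For 2h25 min against 55 min, air (0) gave 1 with array weights, and pollen (0) gave 1 with normexp and quantile normalization and 2 with the block added or with array weights. For 6h50 min against 2h25 min in pollen (6), it was 3 with the percentile over own probes and with slide as a random block, 2 with the deposited table and 5 to 6 with 1 array left out. For 24 h against 6h50 min in pollen (1), it was 0 with quantile normalization with or without normexp, the percentile over own probes, no filter, array weights, slide as a random block, only the arrays compared and the deposited table, and 0 to 1 with 1 array left out. The settings changed the calls over all probes as well, so a changed count is no result about the members alone. In pollen against air at 6h50 min, 12 probes were called upwards and 2 downwards with the processing above. With normexp and quantile normalization these were 274 and 38. For 24 h against 6h50 min in air, 7917 and 5095 probes were called up and down, against 3788 and 2925 with the percentile over own probes. The causes were not tested. The replicate number as a block gave 2 calls for 6h50 min against 2h25 min in air (FOSB and ATF3) and changed no other count. Correlations of same-numbered arrays were 0.30 to 0.31 at 10 min, −0.05 to 0.23 at 55 min, 0.38 to 0.50 at 2h25 min, 0.05 to 0.09 at 6h50 min and 0.19 to 0.42 at 24 h. No called value changed sign. The number of arrays, 3 per group, limits what could be called, and dim FOSB signals at 6h50 min and 24 h limit that gene.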
